A study of Mus musculus with 7 samples.

Results

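Eicosanoid synthesis enzymes make and remove the lipid mediators derived from arachidonic acid. The 10 genes described here, Pla2g4a, Pla2g4c, Ptgs1, Ptgs2, Ptges, Hpgds, Hpgd, Alox5, Alox5ap and Ltc4s, were selected by name from the 22987 genes of the deposited table, and all 10 were present. Their RNA was compared in material scraped from the duodenum of C57BL/6 mice aged 6 weeks, with 4 libraries from Nlrc4-T337S mice and 3 from wild-type mice. The series title gives the mutant allele on both chromosomes (T337S/T337S), and the labels name no other allele and no treatment. Nlrc4 is an inflammasome protein, and the T337S change is known to activate it in people. The labels do not limit the allele to a cell type, and do not say how it was made or whether any mice were pooled. RNA level does not read a point change, so Nlrc4 itself was not used as a check of genotype.

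Phospholipases free arachidonic acid from membranes. Cyclooxygenases then convert it to a prostaglandin precursor that terminal synthases turn into single prostaglandins, while 5-lipoxygenase and its partner protein open the leukotriene branch. In the mouse gut these mediators act on fluid secretion, motility and mucosal repair, and Nlrc4 activation in mouse intestinal epithelium is known to release prostaglandin E2. Tuft cells and mast cells are known sources of leukotrienes and prostaglandin D2, whereas absorptive cells are rich in the enzyme that inactivates prostaglandins.

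No member passed the test between genotypes: 0 of the 7 members tested were called higher and 0 lower in Nlrc4-T337S (limma with Benjamini-Hochberg adjustment over all 10987 tested genes at 0.05). Over all tested genes 0.3% were called higher and 0.592% lower. Of these 7 members, 5 had an unadjusted limma p under 0.05 in the lower direction, against 20.4% of all tested genes, and 6 had a negative change, against 78% of all tested genes. The lowest levels relative to wild type were those of the phospholipase Pla2g4a, both cyclooxygenases and Ptges. In 5 of 10 members every Nlrc4-T337S library was below every wild-type library; among the 7 tested members this held for 3, against 17.3% of all tested genes. The median log2 change of the 7 tested members was -0.43, and that of all tested genes was -0.15. The other 3 members, Pla2g4c, Ptgs2 and Ptges, had a mean under 0.5 RPKM (mapped reads scaled to gene length and library size) and were below the filter; in the fit without it none of them was called either, against 0.105% of genes lower.

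The regions upstream of Pla2g4a, Ptgs1, Ptgs2 and Ptges are shown because these transcripts had the largest relative differences of mean RPKM between genotypes. Each runs from 250 bases before the annotated start to 30 bases after it, 5′ to 3′ on the gene's strand, from RefSeq on GRCm38.p6. Pla2g4a lies at chr1:149961261-149961540 on the minus strand, Ptgs1 at chr2:36230176-36230455 on the plus strand, Ptgs2 at chr1:150099781-150100060 on the plus strand, and Ptges at chr2:30903268-30903547 on the minus strand. Capitals mark matches on either strand to the motifs searched.
Pla2g4a: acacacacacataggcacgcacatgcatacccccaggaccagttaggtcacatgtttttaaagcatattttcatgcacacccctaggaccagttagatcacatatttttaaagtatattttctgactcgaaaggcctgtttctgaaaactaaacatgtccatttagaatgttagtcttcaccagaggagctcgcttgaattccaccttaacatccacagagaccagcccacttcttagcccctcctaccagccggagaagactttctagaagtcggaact
Ptgs1: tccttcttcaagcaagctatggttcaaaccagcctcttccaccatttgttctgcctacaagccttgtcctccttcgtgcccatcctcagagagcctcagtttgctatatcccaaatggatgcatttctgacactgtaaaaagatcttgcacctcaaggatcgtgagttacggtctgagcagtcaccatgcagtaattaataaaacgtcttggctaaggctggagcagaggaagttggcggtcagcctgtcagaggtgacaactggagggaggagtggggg
Ptgs2: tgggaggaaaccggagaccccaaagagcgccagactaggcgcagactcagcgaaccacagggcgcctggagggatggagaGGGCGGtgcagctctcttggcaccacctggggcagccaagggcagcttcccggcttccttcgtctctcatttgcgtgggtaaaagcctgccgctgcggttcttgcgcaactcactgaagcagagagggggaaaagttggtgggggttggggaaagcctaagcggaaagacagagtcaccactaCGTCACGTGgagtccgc
Ptges: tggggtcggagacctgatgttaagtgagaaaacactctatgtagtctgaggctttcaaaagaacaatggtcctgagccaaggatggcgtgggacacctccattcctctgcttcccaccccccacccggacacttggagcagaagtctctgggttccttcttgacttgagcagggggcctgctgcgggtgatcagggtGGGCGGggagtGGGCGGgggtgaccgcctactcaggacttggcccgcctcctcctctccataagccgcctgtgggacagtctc

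The motifs searched on both strands were the CRE half-site CGTCA, the E-box CACGTG, the GC box GGGCGG, the TATA box TATAAA, the interferon-gamma activated site TTCNNNGAA, and the NF-kB site. Among 32541 RefSeq windows of the same 280 bases they occurred in 20%, 6.81%, 34.9%, 13.1%, 7.86% and 4.24%, in that order. The Ptgs2 window held a GC box, and a CRE half-site and an E-box that overlap each other just past the annotated start. Ptges held a pair of GC boxes. None of these letters were found in the Pla2g4a and Ptgs1 windows, which says only that they are not in these windows. The Ptgs2 window had 61.4% G and C and the Ptgs1 window 49.6%, against a median of 52.5% over all windows. Of the 10 members 9 had a window in the table.

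Pla2g4a (chromosome 1, 151676748 to 151808420, mm9), the calcium-dependent cytosolic phospholipase that supplies arachidonic acid, stood at 0.470, 0.825, 0.447 and 0.561 RPKM in Nlrc4-T337S replicates 1 to 4, against 1.66, 1.84 and 1.09 RPKM in wild-type replicates 1 to 3. All 4 Nlrc4-T337S libraries were below the lowest wild-type library. The means were 0.576 ± 0.173 RPKM in Nlrc4-T337S (SD, n = 4) and 1.53 ± 0.392 RPKM in wild type (SD, n = 3). The log2 change was -0.91 (SE 0.18, 95% interval -1.31 to -0.51) and just missed the threshold, with a limma adjusted p of 0.0568. Changes are Nlrc4-T337S minus wild type on log2(RPKM + 0.5), which understates the difference of genes with low values. This call depended on single libraries and on scaling: the limma adjusted p was 0.00875 without Nlrc4-T337S replicate 2, 0.0365 without wild-type replicate 3 and 0.0478 after median-of-ratios scaling, and reached 0.276 without wild-type replicate 1. In those fits that passed, 11.7%, 0.593% and 0.592% of all tested genes were called lower, in the same order. It also passed with array weights (0.0323, with 2.61% of genes lower), with a term for sample order (0.0395, with 0.956% lower) and, like Ptgs1, at a threshold of 0.10 (2.28% lower).

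Pla2g4c (chromosome 7, 13910004 to 13946021), a calcium-independent member of the same phospholipase group, was among the rarest of the 10 transcripts. Its level was 0.206, 0.289, 0.198 and 0.140 RPKM in Nlrc4-T337S and 0.166, 0.186 and 0.167 RPKM in wild type. The Nlrc4-T337S libraries lay on both sides of the narrow wild-type range. Its log2 change in the fit without a filter was 0.07 (SE 0.07, limma adjusted p = 0.614 over 20996 genes).

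Ptgs1 (chromosome 2, 36085946 to 36107792), the cyclooxygenase that many cells make constitutively, was the more abundant of the pair in all 7 libraries. It stood at 1.29, 2.04, 1.25 and 1.65 RPKM in Nlrc4-T337S and 3.68, 4.28 and 2.25 RPKM in wild type. The groups did not overlap, but Nlrc4-T337S replicate 2 and wild-type replicate 3 were close together. The means were 1.56 ± 0.367 RPKM in Nlrc4-T337S (SD, n = 4) and 3.40 ± 1.04 RPKM in wild type (SD, n = 3), with a log2 change of -0.90 (SE 0.21, 95% interval -1.38 to -0.43, limma adjusted p = 0.0887). The adjusted p from limma was 0.0197 without Nlrc4-T337S replicate 2 and 0.0363 without wild-type replicate 3, and at most 0.363 under any alternative tried.

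Ptgs2 (chromosome 1, 151947254 to 151955140), the inducible cyclooxygenase, was barely detected in Nlrc4-T337S, at 0.0819, 0.0621, 0.0495 and 0.0585 RPKM, against 0.328, 0.447 and 0.159 RPKM in wild type. The groups did not overlap, and the wild-type libraries differed among themselves by more than the Nlrc4-T337S libraries did. The means were 0.0630 ± 0.0137 RPKM in Nlrc4-T337S (SD, n = 4) and 0.311 ± 0.145 RPKM in wild type (SD, n = 3). These levels amount to 2.47 to 5.6 reads per kilobase in Nlrc4-T337S and 12.8 to 30.9 in wild type, so counting error is large. Without a filter the log2 change was -0.51 (SE 0.12, limma adjusted p = 0.125).

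Pla2g4a and Ptgs2 are neighbours on chromosome 1, with 138833 bases between them in mm9 and 1 annotated gene, 7530420F21Rik, which does not code for protein. Both were higher in wild-type replicates 1 and 2 than in wild-type replicate 3, as were Ptgs1 and Ptges. The ratio of Ptgs1 to Ptgs2 RPKM within a library was 15.7, 32.8, 25.3 and 28.2 in Nlrc4-T337S, against 11.2, 9.59 and 14.2 in wild type. Every Nlrc4-T337S ratio was above every wild-type ratio. The lowest of them, in Nlrc4-T337S replicate 1, was close to that of wild-type replicate 3. The Nlrc4-T337S ratios divide by 2.47 to 5.6 Ptgs2 reads per kilobase, so their counting error is large. The highest ratio, in Nlrc4-T337S replicate 2, rests on the fewest.

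**Figure D1:**
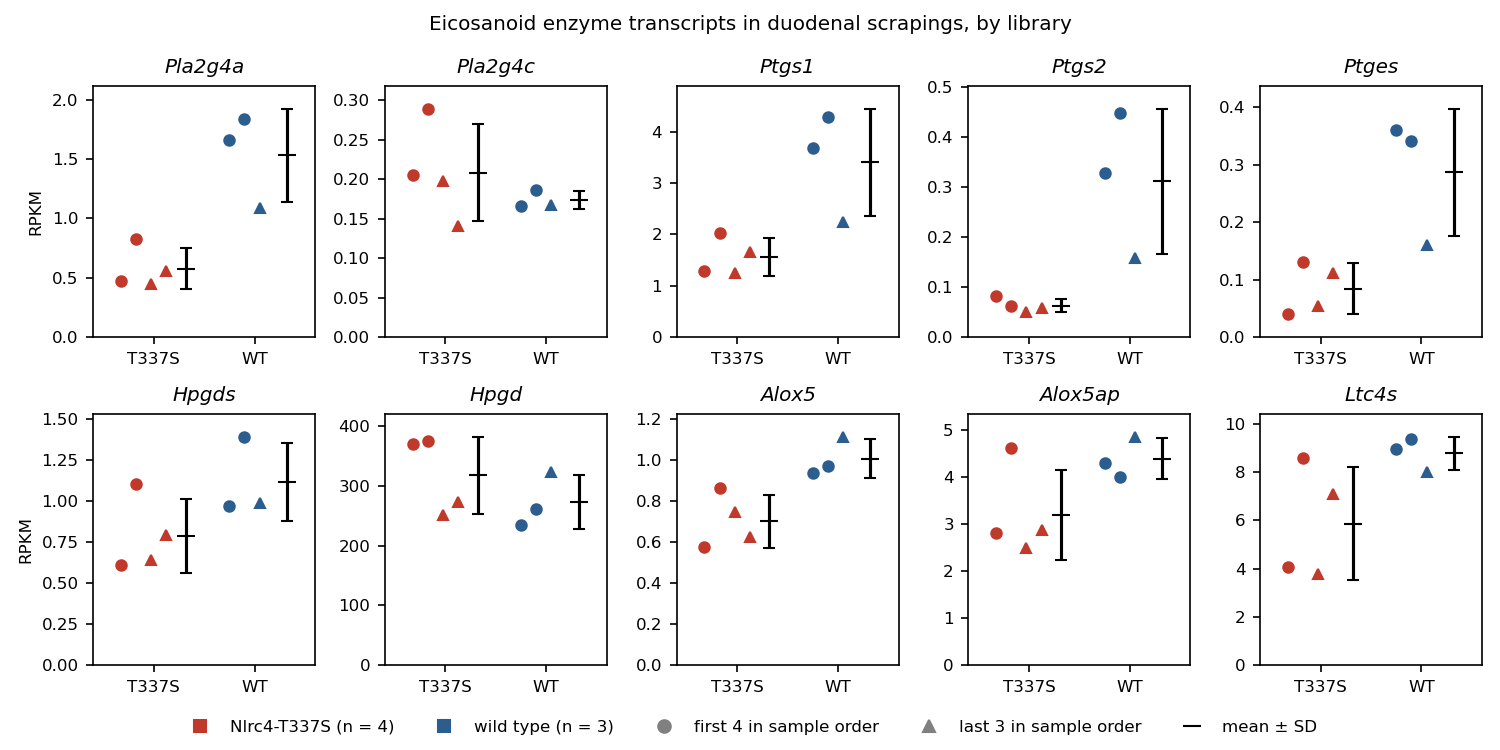
RPKM of each of the 10 enzyme transcripts (vertical axes, linear, from 0) in each Nlrc4-T337S library (red) and wild-type library (blue), with bars for the mean and SD; circles are the first 4 and triangles the last 3 libraries of the submitters' sample order. In Pla2g4a, Ptgs1, Ptgs2, Ptges and Alox5 the red points all lie below the blue ones.

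Ptges (chromosome 2, 30744991 to 30785383), the inducible prostaglandin E synthase, stood at 0.0401, 0.131, 0.0534 and 0.112 RPKM in Nlrc4-T337S and 0.359, 0.341 and 0.160 RPKM in wild type. The groups did not overlap, though Nlrc4-T337S replicate 2 and wild-type replicate 3 were close. The means were 0.0841 ± 0.0442 RPKM in Nlrc4-T337S (SD, n = 4) and 0.287 ± 0.110 RPKM in wild type (SD, n = 3). Between 2.74 and 6.86 reads per kilobase stood behind the Nlrc4-T337S values. The log2 change without a filter was -0.42 (SE 0.11, limma adjusted p = 0.149).

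Hpgds (chromosome 6, 65067287 to 65094902), the haematopoietic prostaglandin D synthase, stood at 0.613, 1.1, 0.641 and 0.795 RPKM in Nlrc4-T337S and 0.973, 1.39 and 0.990 RPKM in wild type. Nlrc4-T337S replicate 2 lay inside the wild-type range and the other 3 below it. Its log2 change was -0.34 (SE 0.16, 95% interval -0.71 to 0.03, limma adjusted p = 0.260).

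Hpgd (chromosome 8, 58773349 to 58799843), the dehydrogenase that inactivates prostaglandins, was by far the most abundant member. It stood at 371, 376, 251 and 274 RPKM in Nlrc4-T337S, against 234, 262 and 323 RPKM in wild type. The groups overlapped, with means of 318 ± 64.9 RPKM in Nlrc4-T337S (SD, n = 4) and 273 ± 45.4 RPKM in wild type (SD, n = 3). The log2 change was 0.21 (SE 0.18, 95% interval -0.21 to 0.62, limma adjusted p = 0.520). Its direction differed with the place of the libraries in the submitters' sample order. The log2 difference was 0.59 in the first 4 libraries, 2 of each genotype, and -0.30 in the last 3, with 2 Nlrc4-T337S libraries and 1 wild-type library. What that order stands for is not given in the labels.

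**Figure D2:**
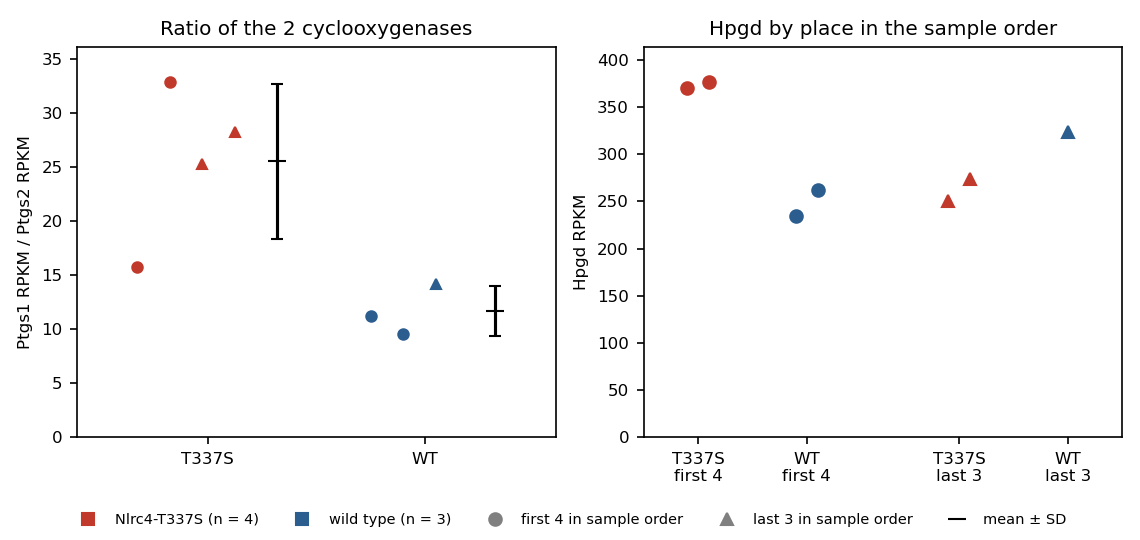
Left, ratio of Ptgs1 to Ptgs2 RPKM in each library, with mean and SD: 15.7 to 32.8 in Nlrc4-T337S and 9.59 to 14.2 in wild type. Ptgs2 rests on 2.47 to 5.6 reads per kilobase in Nlrc4-T337S, so the counting error of these ratios is large. Right, Hpgd RPKM by genotype within the first 4 and the last 3 libraries of the sample order: Nlrc4-T337S lies above wild type in the first 4 and below it in the last 3.

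Alox5 (chromosome 6, 116360095 to 116411196), the 5-lipoxygenase that begins leukotriene synthesis, stood at 0.574, 0.863, 0.745 and 0.623 RPKM in Nlrc4-T337S and 0.936, 0.971 and 1.11 RPKM in wild type. The groups did not overlap, and the gap between them was small. The means were 0.701 ± 0.130 RPKM in Nlrc4-T337S (SD, n = 4) and 1.01 ± 0.0948 RPKM in wild type (SD, n = 3), with a log2 change of -0.33 (SE 0.12, limma adjusted p = 0.178).

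Alox5ap (chromosome 5, 150076634 to 150099621) encodes the membrane protein that hands arachidonic acid to 5-lipoxygenase. Its level was 2.80, 4.62, 2.49 and 2.88 RPKM in Nlrc4-T337S and 4.30, 4.0 and 4.86 RPKM in wild type. Nlrc4-T337S replicate 2 lay within the wild-type range and the other 3 below it. The log2 change was -0.43 (SE 0.18, limma adjusted p = 0.210); without Nlrc4-T337S replicate 2 it was -0.60 and passed (limma adjusted p = 0.0165).

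Ltc4s (chromosome 11, 50049971 to 50052118), the synthase that joins glutathione to leukotriene A4, stood at 4.05, 8.58, 3.76 and 7.09 RPKM in Nlrc4-T337S and 8.97, 9.36 and 8.01 RPKM in wild type. Replicates 1 and 3 of Nlrc4-T337S were well below wild type, replicate 4 was slightly below and replicate 2 lay inside the range. The log2 change was -0.62 (SE 0.26, 95% interval -1.20 to -0.03, limma adjusted p = 0.208), and without Nlrc4-T337S replicate 2 it was -0.81 (limma adjusted p = 0.0422). Ltc4s exons overlap those of Gm16641 on the other strand, and the library kit does not mark strand. Reads from the overlapping stretches therefore cannot be told apart, and the length of the overlap was not measured.

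Ratios within a library show how the leukotriene genes stood to each other. The ratio of Alox5ap to Alox5 RPKM was 4.87, 5.35, 3.34 and 4.62 in Nlrc4-T337S, against 4.59, 4.12 and 4.36 in wild type. That of Ltc4s to Alox5 was 7.06, 9.94, 5.05 and 11.4 in Nlrc4-T337S, against 9.59, 9.65 and 7.18 in wild type. Both ratios overlapped between genotypes. That of the cyclooxygenases did not, but it divides by the few reads of Ptgs2.

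**Figure D3:**
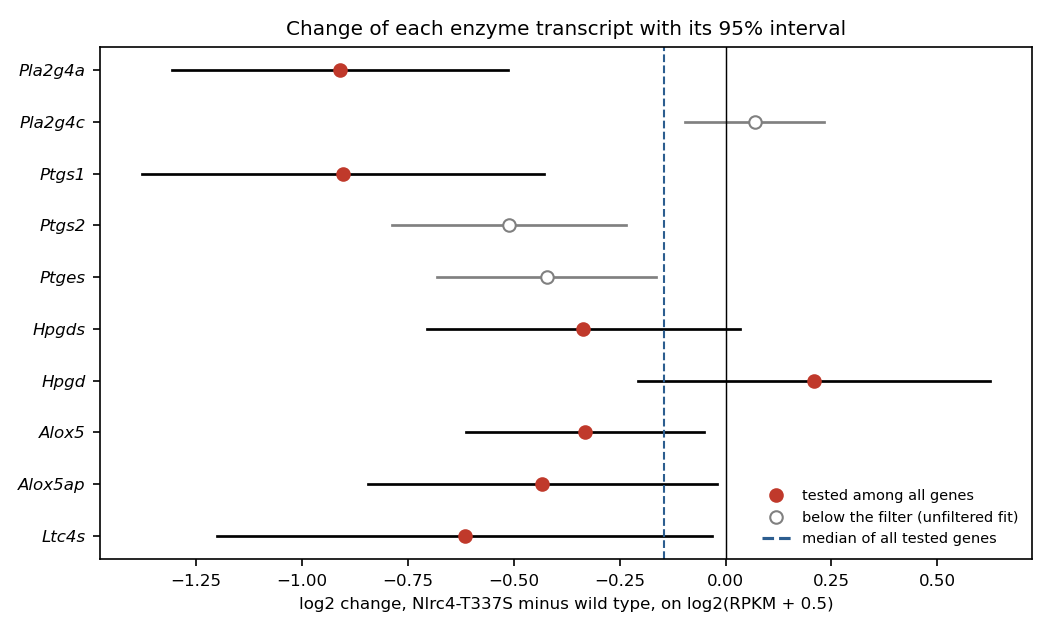
Log2 change of each transcript, Nlrc4-T337S minus wild type on log2(RPKM + 0.5) (horizontal axis), with its 95% interval from limma; open points are the 3 members below the filter, from the fit without a filter. The changes of Pla2g4a (-0.91) and Ptgs1 (-0.90) lie farthest from the median of all tested genes (-0.15, dashed).

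Averaged over the 7 libraries, transcript levels per length ran from Hpgd at 299 RPKM through Ltc4s at 7.12, Alox5ap at 3.71, Ptgs1 at 2.35, Pla2g4a at 0.985, Hpgds at 0.930 and Alox5 at 0.832 to Pla2g4c at 0.193, Ptges at 0.171 and Ptgs2 at 0.169. The mean of Hpgd was 42 times that of the next member, and its range over libraries did not touch that of Ltc4s. Alox5 and Pla2g4c also had separate ranges. Every other pair of neighbours in this order had overlapping ranges, although Ltc4s was above Alox5ap, and Ptgs1 above Pla2g4a, in all 7 libraries. Among the Nlrc4-T337S libraries replicate 2 had the highest level of 9 of the 10 members, the exception being Ptgs2, and replicate 3 the lowest level of 6. Replicate 2 had the fewest mapped reads.

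The other genes of the pathway were read from a list of 72, grouped as phospholipases, prostanoid and leukotriene enzymes, transporters and receptors. Of these 37 were tested. None were called higher and 1 was called lower, with a median log2 change of -0.09 against -0.15 for all tested genes. The 1 call was Pla2g2a (chromosome 4, 138387772 to 138391101), a secreted phospholipase with bactericidal activity, whose gene is disrupted in C57BL/6 mice. It stood at 0.0368, 0.602, 0.0655 and 0.144 RPKM in Nlrc4-T337S and 1.76, 1.33 and 1.31 RPKM in wild type. It fell to a mean of 0.212 ± 0.264 RPKM in Nlrc4-T337S (SD, n = 4), against 1.47 ± 0.255 RPKM in wild type (SD, n = 3). The log2 change was -1.52 (SE 0.24, limma adjusted p = 0.0312). It passed the filter only through the wild-type libraries, and the call was lost on leaving out any one library other than Nlrc4-T337S replicate 2 (limma adjusted p 0.0604 to 0.179) and was kept without that one (0.00270). The summed level of the 7 Paneth cell markers was 110.1, 686, 124 and 262 RPKM in Nlrc4-T337S. In wild type it was 1627, 1097 and 1558 RPKM, without overlap. Within Nlrc4-T337S the libraries stood in the same order as for Pla2g2a. In wild type they did not: replicate 2 was lowest for the markers and replicate 3 for Pla2g2a. The Nlrc4-T337S order was not particular to Paneth markers. The summed eosinophil markers, at 0.843, 2.16, 1.23 and 1.68 RPKM in Nlrc4-T337S replicates 1 to 4, had it too. The part of Paneth cells in the Pla2g2a result was not tested.

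Among the other genes listed under phospholipases, by name and not by measured activity, the most abundant were Pla2g12b, Pla2g16 and Pla2g7. Pla2g12b stood at 99.6 ± 21.1 RPKM in Nlrc4-T337S and 100.3 ± 10.6 RPKM in wild type. Pla2g16, a phospholipase abundant in adipose tissue, stood at 22.5, 24.9, 29.8 and 24.8 RPKM in Nlrc4-T337S and 17.2, 15.2 and 18.3 RPKM in wild type. All Nlrc4-T337S libraries were above all wild-type libraries, as for 1.97% of all tested genes. It was not called (log2 change 0.58, SE 0.12, limma adjusted p = 0.0664). Pla2g16 passed after median-of-ratios scaling (limma adjusted p = 0.0436, with 0.646% of genes higher) and without Nlrc4-T337S replicate 2 (0.0258, with 0.674% higher). Pla2g7, which hydrolyses platelet-activating factor, stood at 5.24 ± 3.10 RPKM in Nlrc4-T337S and 11.0 ± 3.63 RPKM in wild type, and the groups overlapped.

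In prostanoid synthesis, the carbonyl reductase Cbr1 stood at 303 ± 12.9 RPKM in Nlrc4-T337S and 292 ± 35.3 RPKM in wild type. Fam213b, a prostamide and prostaglandin F synthase, stood at 142 ± 8.0 RPKM in Nlrc4-T337S and 178 ± 23.5 RPKM in wild type. It was lower in Nlrc4-T337S without overlap, as were 17.3% of all tested genes, and was not called (limma adjusted p = 0.174). Ptges3, the cytosolic prostaglandin E synthase also known as the p23 co-chaperone, stood at 17.2 ± 3.39 RPKM in Nlrc4-T337S and 18.1 ± 1.26 RPKM in wild type. Past leukotriene C4 synthase, the glutathione transferase Mgst3 stood at 513 ± 53.8 RPKM in Nlrc4-T337S and 462 ± 85.8 RPKM in wild type. Ggt1 and Dpep1, which trim leukotriene C4, stood at 350.3 ± 22.4 and 200.2 ± 43.6 RPKM in Nlrc4-T337S and at 344 ± 19.3 and 195 ± 29.997 RPKM in wild type. These enzymes were plentiful in both genotypes, and none passed.

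For breakdown and transport, the cytochrome Cyp4f14, which hydroxylates leukotriene B4, stood at 663 ± 89.6 RPKM in Nlrc4-T337S and 741 ± 81.0 RPKM in wild type. The soluble epoxide hydrolase Ephx2 stood at 407 ± 18.7 RPKM in Nlrc4-T337S and 356 ± 12.1 RPKM in wild type. It was higher without overlap, as were 1.97% of all tested genes, and was not called. Cyp4f16 stood at 102 ± 16.5 RPKM in Nlrc4-T337S and 92.5 ± 21.0 RPKM in wild type. Of the receptors, the leukotriene B4 receptor Ltb4r2 stood at 10.4 ± 0.909 RPKM in Nlrc4-T337S and 10.3 ± 0.672 RPKM in wild type. The prostaglandin E2 receptor Ptger4 stood at 8.78 ± 0.787 RPKM in Nlrc4-T337S and 8.84 ± 1.5 RPKM in wild type, and Pparg, a nuclear receptor for fatty acid derivatives, at 9.05 ± 3.62 RPKM in Nlrc4-T337S and 9.23 ± 1.46 RPKM in wild type. The levels of these receptors overlapped between genotypes.

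**Figure D4:**
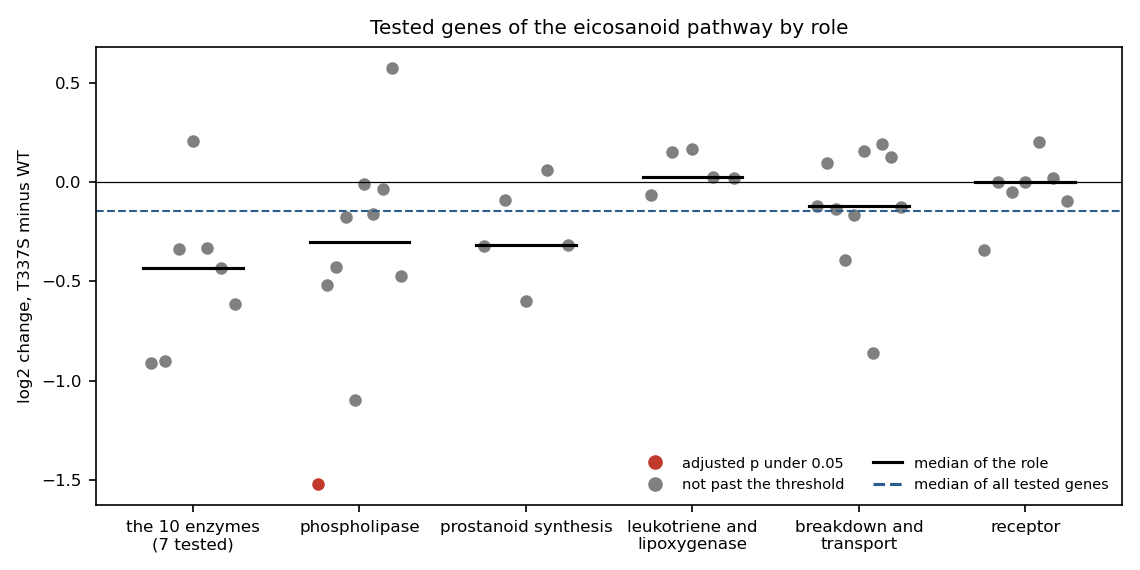
Log2 change, Nlrc4-T337S minus wild type (vertical axis), of the 7 tested members and the 37 other tested pathway genes, 1 point per gene, by role, with the median of each role as a bar. Pla2g2a (-1.52, red) is past the threshold, but it passed the filter only through wild type and lost its call without any one of 6 libraries (limma adjusted p 0.0604 to 0.179); the median of the 7 members (-0.43) lies below that of all tested genes (-0.15, dashed).

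Scrapings hold cells other than absorptive epithelium, and the members are known from several of them. Counts of markers with a lower mean are to be read against the 78% of all tested genes with a negative change. Counts of single markers without overlap are to be read against the 17.3% of all tested genes lower without overlap. In bulk RNA, fewer cells of a type and less RNA per cell cannot be told apart. The 8 enterocyte markers summed to 30486 to 46122 RPKM in Nlrc4-T337S and 33544 to 44306 RPKM in wild type, so RNA of the labelled epithelium was plentiful in every library; 5 of 8 had a lower mean in Nlrc4-T337S. The 11 tuft cell markers measured summed to 5.96 to 7.35 RPKM in Nlrc4-T337S and 6.70 to 8.43 RPKM in wild type. Their ranges overlapped, and 8 of 11 had a lower mean in Nlrc4-T337S. Over the libraries Trpm5 ran from 1.17 to 2.27 RPKM, Avil from 1.45 to 2.29 and Siglecf from 1.58 to 2.25. The other tuft markers, Dclk1, Pou2f3 and Il25 among them, were below 0.5 RPKM in every library. The 11 mast cell markers summed to 1.76 to 2.67 RPKM in Nlrc4-T337S and 3.07 to 5.26 RPKM in wild type, without overlap. Of these, 10 of 11 had a lower mean, and Tpsab1 was listed at 0 in 6 libraries. Only Mcpt1 and Mcpt2 were themselves without overlap, and neither was called (limma adjusted p 0.0874 and 0.136). Just 3 of the 11 mast markers were above the filter. Of these, Mcpt2 passed it only through wild type, with means of 0.392 RPKM in Nlrc4-T337S and 0.887 RPKM in wild type.

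The 12 macrophage and dendritic cell markers measured all had a lower mean in Nlrc4-T337S, and their sum was 61.7 to 167 RPKM in Nlrc4-T337S and 127 to 213 RPKM in wild type. The 7 fibroblast and endothelial markers also all had a lower mean. They summed to 0.936 to 3.63 RPKM in Nlrc4-T337S and 4.58 to 12.2 RPKM in wild type, without overlap. Col3a1, Dcn and Pdgfra were each without overlap, while Col1a1, Col1a2, Pecam1 and Cdh5 overlapped. Dcn was called lower (limma adjusted p = 0.0207), against 0.592% of all tested genes. Dcn and Col3a1 passed the filter only through wild type. Their means were 0.309 and 0.461 RPKM in Nlrc4-T337S, and 2.54 and 2.96 RPKM in wild type. Within wild type, replicate 3 was the lowest for both lists and for Pla2g4a, Ptgs1, Ptgs2, Ptges and Ltc4s, but the highest for Hpgd, Alox5 and Alox5ap. It was also the lowest for the enterocyte and eosinophil sums, and not for the tuft, mast, neutrophil, Paneth and goblet sums. Within Nlrc4-T337S, replicate 2 was the highest for both lists, and for 9 of the 10 members whatever their role. It was also the highest for the enterocyte, Paneth and eosinophil sums, and not for the tuft, mast, neutrophil and goblet sums. All 7 Paneth cell markers had a lower mean in Nlrc4-T337S, and 2 of them were called lower, against 0.592% of all tested genes. These were Mmp7 and Defa3 (limma adjusted p 0.0392 and 0.0493). The part of these cell types in the members' values was not tested. The 8 neutrophil markers summed to 1.14 to 1.59 RPKM in Nlrc4-T337S and 1.18 to 2.03 RPKM in wild type, with 5 of 8 lower in mean and Camp at 0 in every library. The 6 eosinophil markers summed to 0.843 to 2.16 RPKM in Nlrc4-T337S and 1.96 to 3.05 RPKM in wild type, and the 6 goblet cell markers to 6157 to 8455 RPKM in Nlrc4-T337S and 7789 to 10262 RPKM in wild type. Both sums overlapped, with 4 of 6 and 6 of 6 markers lower in mean.

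**Figure D5:**
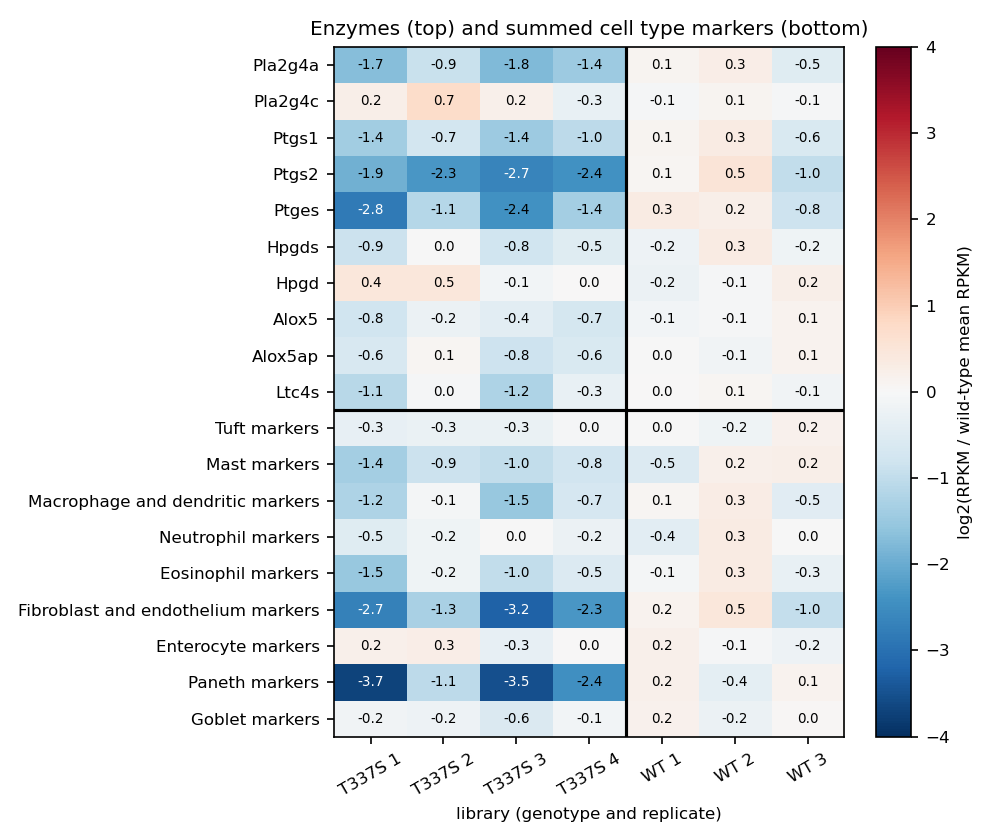
Level of each enzyme transcript (top) and of each summed marker list (bottom) in each library, as log2 of its RPKM over the wild-type mean (colour and printed value). Pla2g4a, Ptgs1, Ptgs2, Ptges and Alox5 are without overlap between genotypes and lower in Nlrc4-T337S. So are the mast, fibroblast and endothelium, and Paneth marker sums, while Hpgd and the enterocyte sum overlap.

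Across the 7 libraries, the genes whose log2 levels were most like those of the 3 most abundant members were found among 10471 tested genes with established names. Those most like Hpgd were Txnip, Cir1 and Fbxl5 (Pearson r = 0.98, 0.94 and 0.93). Txnip was the 1 gene above 0.95 for Hpgd. Those most like Ltc4s were Paxip1, Gle1 and Csnk1e, each at 0.99 or above, among 275 genes above 0.95, and those most like Alox5ap were Eif3h, Sh3bgrl2 and Ttc38, each at 0.99, among 153. Such values describe 7 libraries that share the genotype split and differ in depth.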

How the data were processed

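TopHat 2.1.0 aligned the reads to mouse build mm9 and Partek 6.16.0606 gave the deposited RPKM, per the file headers. The gene annotation and the handling of reads with several alignments were not stated in these sources. Libraries were made with the Illumina TruSeq RNA kit, per the labels' protocols. The deposited counts of quality-passing reads were 45032119 to 95732587 per library, and the deposited fraction mapped came to 84.2% to 97.1%. Each read on a kilobase of gene thus added 0.0124 to 0.0251 RPKM.

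RPKM is not a count, so log2(RPKM + 0.5) was tested with limma 3.58.1 (R 4.3.3; mean-variance trend, no covariate, two-sided, Benjamini-Hochberg adjustment at 0.05) over the 10987 genes with a mean of at least 0.5 RPKM. Members under that filter have values from a fit without it. Grouping was by the genotype label. Replicates were numbered in order of accession, without pairing. Nothing in the labels shows separate animals, so p-values cover only library-to-library spread, some of which may be technical.

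The members, the pathway list, the marker lists and the tests were chosen with earlier results of these data known. All members were named. Of the pathway genes, those past the threshold and up to 3 per role with the highest mean were named. Pattern likeness is the Pearson correlation of log2 values. Gene positions are from GENCODE M1 on mm9 by symbol. RefSeq windows carry their own GRCm38.p6 positions; that of Pla2g4a is for the outermost of its 2 starts. The fitting steps were tested on simulated data. Figures used matplotlib 3.10.9 in Python 3.11.15.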

Additional observations from a re-analysis of the deposited data

How the results depend on the processing

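No paired analysis was possible because the labels give no replicate numbers shared by the groups. With 4 and 3 libraries, and few reads behind Ptgs2, Ptges and Pla2g4c, small differences were not detectable. All tested members kept their direction under every alternative fitted; the last 3 libraries of the sample order gave values only.

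As deposited, 33 genes were higher and 65 lower, 0 members were called, and 0 other pathway genes were higher and 1 lower. Pla2g4a made 1 member lower after median-of-ratios scaling, with array weights (limma adjusted p = 0.0323) and with a term for sample order (0.0395); a threshold of 0.10 gave 2, adding Ptgs1. Leaving out each library gave 0 to 4 members lower, the 4 without Nlrc4-T337S replicate 2 (Pla2g4a, Ptgs1, Alox5ap and Ltc4s), where 1280 genes or 11.7% of those tested were lower, and 2 without wild-type replicate 3 (Pla2g4a and Ptgs1), where 0.593% were. It gave 0 to 1 other pathway genes higher and 0 to 3 lower. Other pathway genes lower numbered 0 with a pseudocount of 0.1, no filter, a mean of at least 2 RPKM (which removes Pla2g2a) and the first 4 libraries alone. Other pathway genes higher numbered 1 (Pla2g16) after median-of-ratios scaling, with array weights and at 0.10.

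Over all genes, leaving out each library gave 9 to 74 higher and 3 to 1280 lower. No filter gave 10 higher and 22 lower, a mean of at least 2 RPKM 28 lower, array weights 61 higher and 287 lower, a threshold of 0.10 62 higher and 250 lower, the sample order term 105 lower, and the first 4 libraries 1 higher and 7 lower. Median-of-ratios scaling gave 71 higher and 65 lower and quantile normalization 74 higher and 59 lower. The median change of all genes was -0.15 as deposited and 0.01 after median-of-ratios scaling, where Pla2g4a was at -0.80, Ptgs1 at -0.76, Ltc4s at -0.45, Alox5ap at -0.28, Hpgds and Alox5 at -0.22 and Hpgd at 0.39. Added after seeing the data, 1 fit left out Nlrc4-T337S replicates 1 and 3, lowest in Paneth and fibroblast markers. It gave 1 gene higher, 1 lower, 0 members and 0 other pathway genes lower. It had fewer libraries and called few genes of any kind, so its lack of member calls cannot be tied to those markers. The cause of these shifts was not tested.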
